A study of Arabidopsis thaliana with 12 samples.

Results

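*SPX1*, *PS2*, *PAP17*, *PLDP2* and *MGD3* are Arabidopsis genes that belong to the response of plants to a shortage of phosphate, and *PLDP2* and *MGD3* act in the replacement of membrane phospholipids by galactolipids. They were selected on measured values: all 5 had a lower signal in mock-treated seedlings of the *PtSnRK2.7* overexpressor than in mock-treated wild-type seedlings. They are 5 of the 13983 genes for which a probe set of the Affymetrix ATH1 GeneChip could be paired with that gene alone, and each of them was read by 1 probe set. All seedlings were of the Columbia strain and were harvested whole at 9 days. At 7 days they had been moved to fresh MS medium of 1/2 strength, which held no added salt for the mock treatment and 200 mM NaCl for the salt treatment. The wild-type carried no transgene, and the overexpressor carried 35S:PtSnRK2.7:NOS, a gene of a poplar SnRK2 protein kinase behind the *35S* promoter of cauliflower mosaic virus, which is active in most tissues. Each of the 4 combinations of genotype and treatment was measured in 3 biological replicates, 12 arrays in all. The overexpressor was a single line, number 20, of T2 plants, and these arrays held no empty-vector line. The level of the poplar transgene was not measured here, so the genotype labels were not checked against it.

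When phosphate is scarce, the transcription factor PHR1 of Arabidopsis and its relatives raise the transcripts of a large group of genes. SPX1 binds inositol phosphates that report a sufficient phosphate supply and, in that state, holds PHR1 back, while its own transcript is a target of PHR1. Phosphatases such as PS2 and PAP17 then release phosphate from compounds that bear it, and membrane phospholipids are broken down and replaced by galactolipids and sulfolipids, which contain no phosphorus.

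The deposited values were MAS5 signals, an intensity for each probe set on a linear scale, with a common trimmed mean on every array. Of the 4 groups, the salt-treated wild-type had the widest spread between replicates, with a median SD of 0.36 on the log2 scale over all probe sets, against 0.20 to 0.21 in each of the other 3. A set of 2329 probe sets was chosen for a large called change by salt in the overexpressor. Over these, the change of each salt-treated wild-type array had a slope of 0.92, 0.58 and 0.85 (replicates 1, 2 and 3) on the mean change in the overexpressor. That choice favours slopes below 1, so the slopes compare the wild-type replicates only. Replicate 2 stood apart with the smallest change. Both shoot and root markers were present, as whole seedlings require. The 5 shoot markers measured of 14 listed and the 5 root markers measured of 15 were above the 20th percentile of signals on all 12 arrays. Their part in the results for the 5 genes was not tested. Under mock treatment, 0 of 5 shoot and 0 of 5 root markers passed an adjusted p of 0.05 (limma) for a difference between wild-type and overexpressor, and under salt 0 of 5 shoot and 1 of 5 root markers did, *PER27* (log2 difference -1.29, adjusted p = 0.0285). The salt responses lowered 4 shoot and 3 root markers in the wild-type and 5 and 3 in the overexpressor. The summed signal of the shoot markers ran from 79783 to 87598 in wild-type and from 77458 to 104769 in overexpressor seedlings under mock treatment, and from 22280.3 to 69639 and from 35578 to 37641 under salt. The root markers summed to 5496 to 6929 and 6685 to 7373 under mock treatment, and to 1883 to 3492 and 1422 to 2135 under salt. In such samples, fewer cells of a type and less RNA per cell cannot be told apart.

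The sensor gene *SPX1* (AT5G20150) had its lowest signals in the mock-treated overexpressor and its highest in salt-treated seedlings. Under mock treatment its signal was 1455, 2166 and 1643 in the 3 wild-type replicates and 369.9, 323 and 384 in the 3 overexpressor replicates. Under salt the wild-type replicates read 2884, 3485 and 3165 and the overexpressor replicates 2467, 2276 and 3087. The mock-treated overexpressor arrays lay below all others, the mock-treated wild-type arrays came next, and the salt-treated arrays of the genotypes overlapped at the top. In means, the signal of *SPX1* under mock treatment was 1754 ± 368 (SD, n = 3) for the wild-type and 359 ± 31.8 for the overexpressor, a log2 difference of -2.27 (SE 0.16) in limma's fit, or 4.83-fold lower. Under salt the means were 3178 ± 301 and 2610.1 ± 424.

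Of the 2 phosphatase genes, *PS2* (AT1G73010) encodes an enzyme that acts on pyrophosphate, and it had the widest range of log2 signal of the 5 genes. Under mock treatment it read 522, 557 and 627 in wild-type replicates 1 to 3, and 104, 61.0 and 89.2 in those of the overexpressor. Under salt it read 2034.5, 1820.1 and 2153 in the wild-type, and 1280.4, 1404 and 1986 in overexpressor seedlings. Again the groups were ordered from the mock-treated overexpressor through the mock-treated wild-type to the salt-treated seedlings, and overlap was seen only between the genotypes under salt, where overexpressor replicate 3 exceeded wild-type replicate 2. The mock means of *PS2* were 569 ± 53.3 and 84.8 ± 22.0, a log2 difference of -2.78 (SE 0.20) or 6.85-fold lower in the overexpressor. These overexpressor values were low on their arrays (percentiles 31.3 to 39.5), so the size of the mock difference is less certain. The salt means were 2002 ± 169 and 1557 ± 377.

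*PAP17* (AT3G17790), a gene of a purple acid phosphatase that splits phosphate esters, had mock signals of 1214, 1217 and 965 in wild-type and of 267, 345 and 335 in overexpressor seedlings. Its salt signals were 2924, 2189 and 3654 in wild-type and 2795, 2507.5 and 2792 in overexpressor seedlings. The salt-treated overexpressor arrays all fell inside the range of the salt-treated wild-type arrays, which was wide, with wild-type replicate 2 the lowest of the 6. The mock means of *PAP17* were 1132 ± 144 and 316 ± 42.4, a log2 difference of -1.84 (SE 0.17) or 3.59-fold lower in the overexpressor, and the salt means were 2923 ± 733 and 2698 ± 165.

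*PLDP2* (AT3G05630) encodes phospholipase D zeta 2, which cleaves the head group from phospholipids. Its mock signals were 132, 129 and 107 in wild-type seedlings and 40.5, 45.8 and 44.5 with the transgene. The overexpressor values were at percentiles 26.3 to 28.5 of the signals on their arrays, so they were close to the background and the size of the mock difference is uncertain. Under salt the signals of *PLDP2* were 318, 380.4 and 435 in wild-type seedlings and 249, 182 and 286 with the transgene. All 4 groups were separate, with every salt-treated overexpressor array below every salt-treated wild-type array. *PLDP2* had its probe set paired only through a table of genes raised by salt in the wild-type, so a high salt-treated wild-type signal was a condition of its entry. The mock means were 122 ± 13.7 and 43.6 ± 2.77, a log2 difference of -1.48 (SE 0.20) or 2.80-fold lower in the overexpressor, and the salt means were 378 ± 58.6 and 239 ± 52.5.

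*MGD3* (AT2G11810) encodes a monogalactosyldiacylglycerol synthase, an enzyme of galactolipid synthesis. Its mock signals were 207, 297 and 276 in wild-type seedlings and 85.3, 71.0 and 57.3 in overexpressor seedlings. Under salt the wild-type read 369, 592 and 685 and the overexpressor 619.8, 359 and 581. Under salt the lowest array was an overexpressor and the highest a wild-type array, and the genotypes alternated between them. The mock means of *MGD3* were 259.8 ± 47.3 and 71.2 ± 14.0, a log2 difference of -1.87 (SE 0.27) or 3.65-fold lower in the overexpressor, and the salt means were 549 ± 163 and 519.9 ± 140.4. Its mock-treated overexpressor values were low on their arrays (percentiles 31.3 to 36.3), so the size of the mock difference is less certain.

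**Figure D1:**
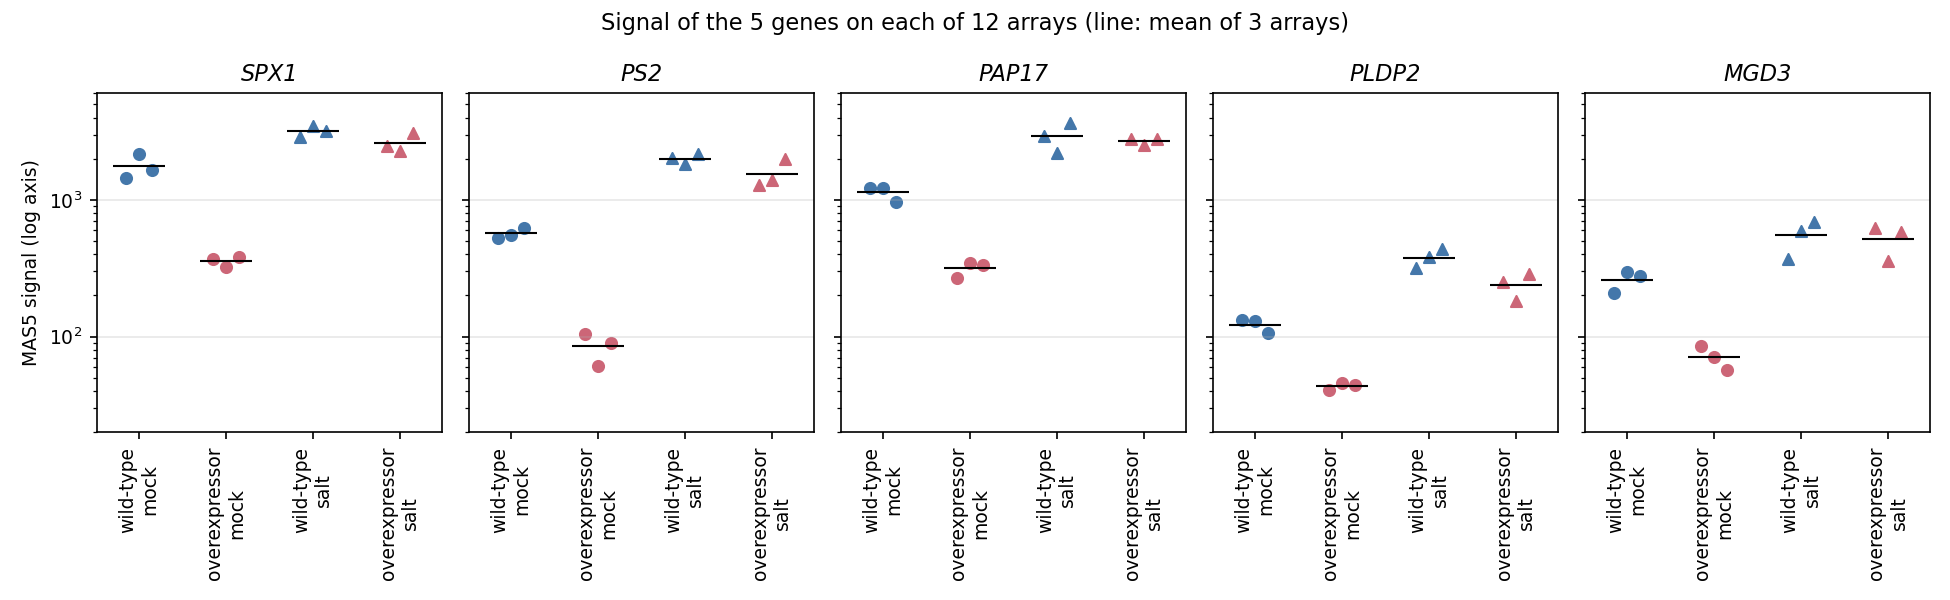
MAS5 signal (log axis) of *SPX1*, *PS2*, *PAP17*, *PLDP2* and *MGD3* on each of the 12 arrays, with 1 point per replicate, circles for mock treatment, triangles for salt, blue for the wild-type and red for the overexpressor, and a black line at the mean of 3 arrays. In each gene the 3 mock-treated overexpressor arrays are the lowest, and only in *PLDP2* are the genotypes separate under salt.

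The first comparison asked what overexpression did without added salt. As this is the comparison on which the genes were chosen, its values are a description. The 5 log2 differences between overexpressor and wild-type had a median of -1.87, against a median of 0.013 over all 22746 probe sets tested. Counted from the lowest difference, *PS2* ranked 53, *SPX1* 136, *MGD3* 293, *PAP17* 304 and *PLDP2* 543. The overexpressor arrays lay wholly below the wild-type arrays in 5 of 5 genes, as they did in 9.72% of all probe sets, and nothing is read from this count. Over the whole array limma called 30 probe sets (0.132%) higher and 98 (0.431%) lower in the overexpressor at an adjusted p under 0.05. The methods' t-test, which lets the variances of the 2 groups differ, called 0% after the same Benjamini-Hochberg adjustment. It was run here on all 22746 probe sets, without the study's quality control and filtering. The study itself listed genes as changed in this comparison, so the 0% is not a repeat of its procedure.

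The second comparison asked whether the genotypes differed under salt. The salt-treated arrays did not enter the mock comparison, but the supplementary tables that paired the 5 genes with probe sets also drew on them, so these tests are not independent of the choice. For *PLDP2* in particular, the condition of entry favours a wild-type level above that of the overexpressor under salt, and its values are a description. By limma 0 of 5 reached an adjusted p under 0.05, against 279 probe sets (1.23%) called higher and 178 (0.783%) called lower in the overexpressor over the whole array. With each array centred on its median, those counts were 545 and 152. By the methods' t-test 0 of 5 genes passed before or after adjustment, and 0% of the array after it. *PLDP2* had a log2 difference of -0.68 (SE 0.20, 95% interval -1.11 to -0.24), 1.60-fold lower in the overexpressor. Its arrays did not overlap, as was so in the lower direction for 10% of all probe sets, and nothing is read from this. With array quality weights 1 of the 5 genes, *PLDP2*, was called, which for the same reason is a description. The 3′ to 5′ log2 ratio of the actin control probe sets also differed between the genotypes under salt, with 2.82 to 3.07 on wild-type and 2.50 to 2.62 on overexpressor arrays, and its part in these values was not tested.

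For *SPX1* the log2 difference under salt was -0.29 (95% interval -0.63 to 0.049, adjusted p = 0.365, limma). That of *PS2* was -0.39 (95% interval -0.82 to 0.044, adjusted p = 0.338). The intervals of *PAP17*, -0.46 to 0.29 around -0.086 (adjusted p = 0.856), and of *MGD3*, -0.65 to 0.51 around -0.070 (adjusted p = 0.932), lay on both sides of 0. All 5 estimates were negative, with a median of -0.29, whereas 52.7% of all probe sets had a negative estimate and their median was -0.025. The negative sign was not kept throughout for *PAP17* and *MGD3*: without wild-type salt replicate 3 it was 0.091 for *PAP17* and 0.11 for *MGD3*, and without overexpressor salt replicate 2 it was 0.18 for *MGD3*. Without wild-type salt replicate 2, the array that stood apart, the 5 log2 differences were -0.22 for *SPX1*, -0.45 for *PS2*, -0.28 for *PAP17*, -0.66 for *PLDP2* and 0.0093 for *MGD3*.

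**Figure D2:**
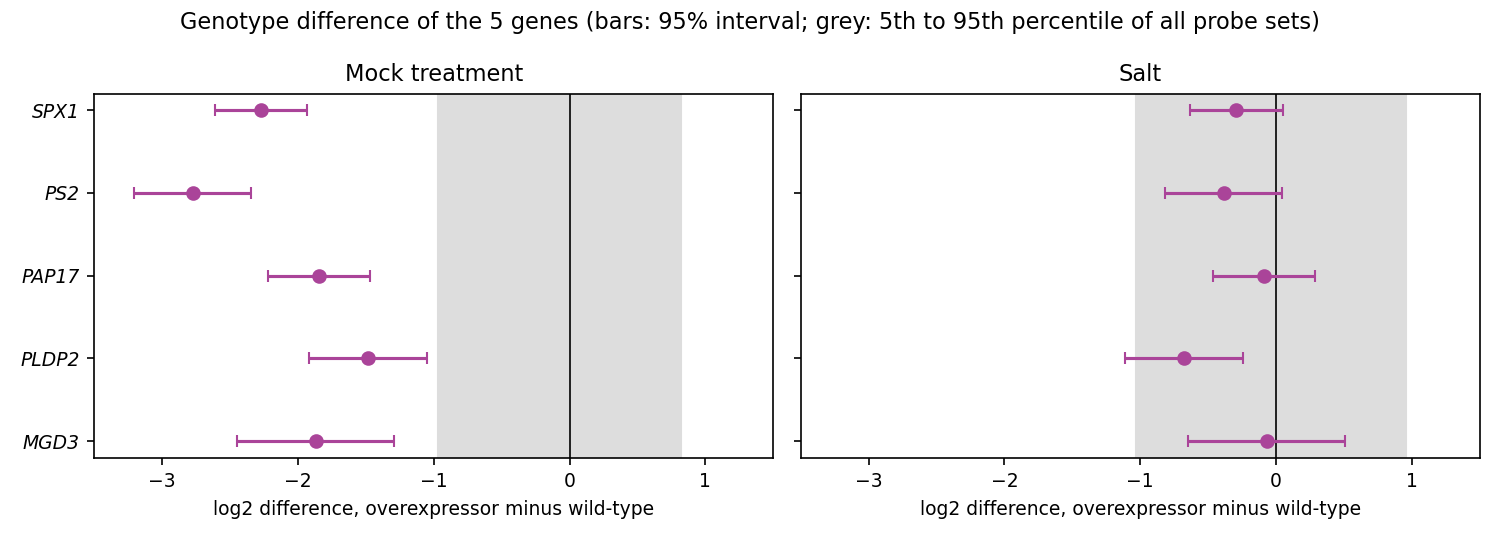
Log2 difference between overexpressor and wild-type for each of the 5 genes (points, with 95% intervals from limma as bars) under mock treatment on the left and under salt on the right, with the grey band marking the 5th to the 95th percentile of all probe sets. Under mock treatment, the condition on which the genes were chosen, all points lie below the band, and under salt all lie within it, from -0.68 for *PLDP2* to -0.070 for *MGD3*.

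Under salt the signal of each of the 5 genes was higher on every replicate when set against the mean of the mock-treated replicates of the same genotype. These comparisons share the mock arrays on which the genes were chosen and are given as description, without a test. In the wild-type the log2 difference was 0.87 (SE 0.16) for *SPX1*, 1.82 (SE 0.20) for *PS2*, 1.35 (SE 0.17) for *PAP17*, 1.62 (SE 0.20) for *PLDP2* and 1.05 (SE 0.27) for *MGD3*. Without wild-type salt replicate 2 they were 0.80, 1.88, 1.54, 1.61 and 0.97 in the same order. The median over all arrays was 1.35, against -0.068 over all probe sets. For 5 of 5 genes the salt-treated wild-type arrays lay wholly above the mock-treated ones, as they did for 21.1% of all probe sets, and the choice of genes bears on this count. The 3′ to 5′ log2 ratio of the array's ubiquitin control probe sets moved with salt as well, from 0.99 to 1.17 on mock-treated arrays to 0.50 to 0.87 on salt-treated arrays, and its part in these values was not tested.

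In the overexpressor, where the mock-treated level was lower, the log2 difference was 2.85 (SE 0.16) for *SPX1*, 4.21 (SE 0.20) for *PS2*, 3.10 (SE 0.17) for *PAP17*, 2.43 (SE 0.20) for *PLDP2* and 2.85 (SE 0.27) for *MGD3*. As ratios these were 7.23-fold for *SPX1*, 18.5-fold for *PS2*, 8.59-fold for *PAP17*, 5.39-fold for *PLDP2* and 7.19-fold for *MGD3*. The ratios of *PS2*, *PLDP2* and *MGD3* rest on low mock signals, so their size is uncertain. The median of the 5 log2 differences was 2.85, against -0.093 over all probe sets. Counted from the highest difference, *PS2* ranked 200, *PAP17* 475, *SPX1* 577, *MGD3* 582 and *PLDP2* 806 of 22746. The arrays did not overlap for 5 of 5 genes here either, and for 23.3% of all probe sets.

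The order of the groups by mean signal was the same in all 5 genes: salt-treated wild-type, salt-treated overexpressor, mock-treated wild-type and mock-treated overexpressor. Neighbours in this order had arrays that did not overlap, except that the salt-treated genotypes overlapped in *SPX1*, *PS2*, *PAP17* and *MGD3*. The place of the mock-treated overexpressor below the mock-treated wild-type was fixed by the choice of genes. The share of all probe sets with this order was not computed, and nothing is read from the order.

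The change on each salt-treated replicate was taken from the mean of the 3 mock-treated replicates of its genotype. The spread of these changes is therefore that of the salt-treated arrays and leaves out the spread between the mock-treated ones. In the 3 salt-treated wild-type replicates the change of *SPX1* was 0.74, 1.01 and 0.87 on the log2 scale, while overexpressor replicates gave 2.78, 2.67 and 3.11. The changes of *PS2* were 1.84, 1.68 and 1.93 for wild-type replicates 1 to 3, with 3.95, 4.08 and 4.58 for those of the overexpressor. For both genes the wild-type replicates were close together and below those of the overexpressor. In every gene this gap contains the mock difference on which the genes were chosen, and nothing is read from it. The salt-treated signals of *SPX1* and *PS2* themselves overlapped between the genotypes. *PAP17* had values of 1.38, 0.96 and 1.70 (wild-type) and 3.16, 2.999 and 3.15 (overexpressor). *PLDP2* had 1.38, 1.64 and 1.84 (wild-type) and 2.51, 2.06 and 2.71 (overexpressor). *MGD3* varied most, with 0.52, 1.21 and 1.42 (wild-type) and 3.14, 2.35 and 3.05 (overexpressor). Wild-type replicate 2, the array with the smallest change over the 2329 probe sets, had the lowest of the 3 wild-type values for *PS2* and *PAP17* only, and the highest for *SPX1*.

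**Figure D3:**
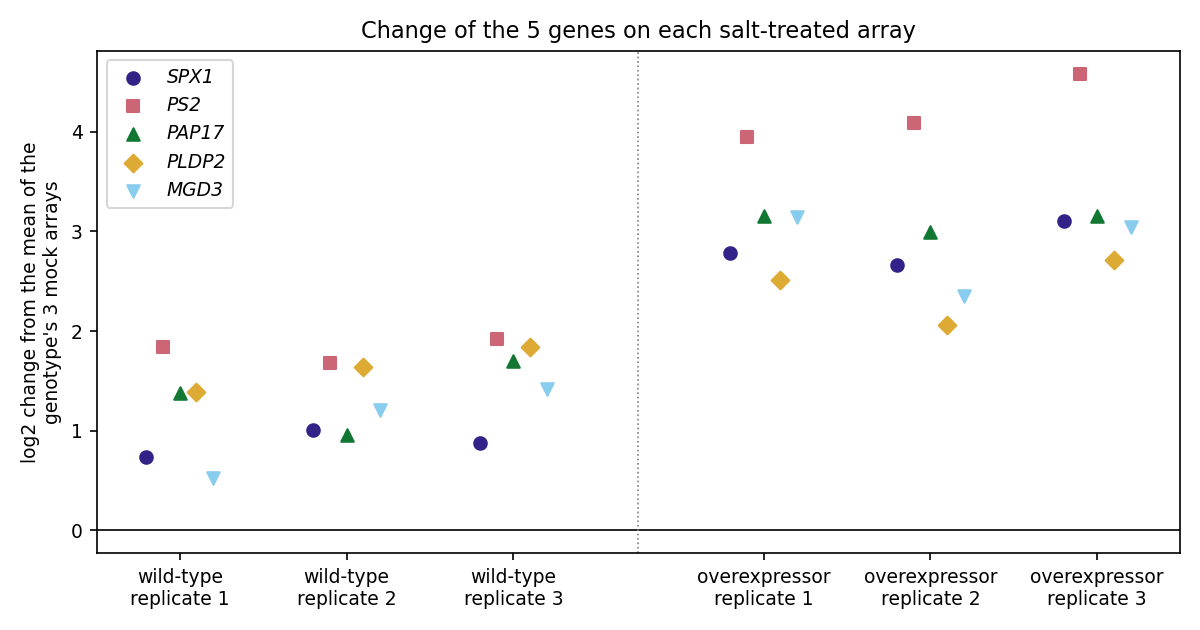
Log2 change of each of the 5 genes on each salt-treated array from the mean of the 3 mock-treated arrays of the same genotype, with the 3 wild-type replicates on the left, the 3 overexpressor replicates on the right and a symbol for each gene. Every point is above 0, from 0.52 for *MGD3* in wild-type replicate 1 to 4.58 for *PS2* in overexpressor replicate 3, and the overexpressor points of each gene lie above its wild-type points. That gap contains the mock difference on which the genes were chosen.

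The difference between the salt responses, the interaction of genotype and salt, contains the mock comparison with its sign turned and is therefore also a description. It was 1.98 (SE 0.22) for *SPX1*, 2.39 (SE 0.28) for *PS2*, 1.76 (SE 0.24) for *PAP17*, 0.81 (SE 0.28) for *PLDP2* and 1.80 (SE 0.38) for *MGD3* on the log2 scale. Without wild-type salt replicate 2 it was 2.05, 2.32, 1.56, 0.82 and 1.88 in the same order. The median was 1.80, against -0.031 over all probe sets, of which 56 (0.246%) were called higher and 12 (0.0528%) lower at an adjusted p under 0.05 by limma. The value of *PLDP2*, like its salt response in the overexpressor, rests on mock signals close to the background, so its size is uncertain and it is not ranked against the others. Those of *PS2* and *MGD3* rest on low mock-treated overexpressor signals as well, and are less certain in size.

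Beyond these 5, 74 other genes of phosphate signaling, phosphate transport, phosphatases, phospholipid breakdown, and galactolipid and sulfolipid synthesis were listed, and 15 of them had a probe set paired with that gene alone. Of the 15, 6 were paired through the array annotation and 9 only through the study's own supplementary tables of changed genes, which were drawn from these same arrays, so the direction of those 9 is not independent evidence. Under mock treatment 3 of the 15 were lower in the overexpressor at an adjusted p under 0.05 by limma, 0 were higher and 12 did not pass. All 3 came from the 9 table genes, and the study had listed all 3 as changed in this same comparison. Their calls are therefore a description. Of the 6 annotation genes 0 passed. The methods' t-test called 0 of the 15.

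Those that fell were *SPX3*, *PS3* and *GDPD1*. *SPX3*, which encodes another SPX protein, had signals of 114, 147 and 159 in wild-type against 36.3, 41.7 and 34.3 in overexpressor seedlings (log2 difference -1.89, SE 0.30). The overexpressor values were at percentiles 24.9 to 26.5 of the signals on their arrays, close to the background, so the size of this difference is uncertain. *PS3*, a gene of a glycerol-3-phosphate permease family, had 873, 1248 and 1088 against 470.1, 419 and 469.5 (-1.23, SE 0.13). *GDPD1*, whose product cleaves the glycerophosphodiesters left when phospholipids lose their acyl chains, had 621, 980.2 and 609.9 against 212, 219 and 300.3 (-1.58, SE 0.30). In none of the 3 did the arrays of the genotypes overlap, as was so in the lower direction for 9.72% of all probe sets. It was also so for *PHT5;1*, *PAP1*, *PECP1*, *MGD2* and *SQD2*, and nothing is read from this. The count of 3 became 1 without wild-type mock replicate 2, wild-type mock replicate 3 or overexpressor mock replicate 3, and 5 without wild-type salt replicate 1 or 2, which enter the shared variance. It stayed at 3 without overexpressor salt replicate 3 and was 2 without any 1 of the remaining arrays. It was 2 with the replicate block, the filter at the 40th percentile or no intensity trend, and 5 with array quality weights, with weights shared within each group or with only the groups compared. An unadjusted p under 0.05 was reached in the lower direction by 7 of the 15 and by 4.64% of all probe sets, and the median of the 15 differences was -0.49. Of the 7, 6 were table genes. As the study had listed 5 of the 9 table genes as changed in this same comparison, nothing is read from that count. Among the annotation genes 1 of 6 reached an unadjusted p under 0.05, the purple acid phosphatase gene *PAP1* (AT1G13750), with -0.63 (SE 0.26).

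Under salt 0 of the 15 genes passed for a difference between wild-type and overexpressor at an adjusted p of 0.05, in limma as in the methods' t-test. Before adjustment limma put 3 below 0.05 in the lower direction, where it put 9.01% of all probe sets, namely *SPX3* (-0.66), *PS3* (-0.43) and the SUMO ligase gene *SIZ1* (-0.40). The estimate was negative for 12 of the 15, with a median of -0.27, and for 52.7% of all probe sets. With array quality weights 4 of the 15 were called lower, without wild-type salt replicate 1 it was 2, and without wild-type salt replicate 2 it was 1.

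**Figure D4:**
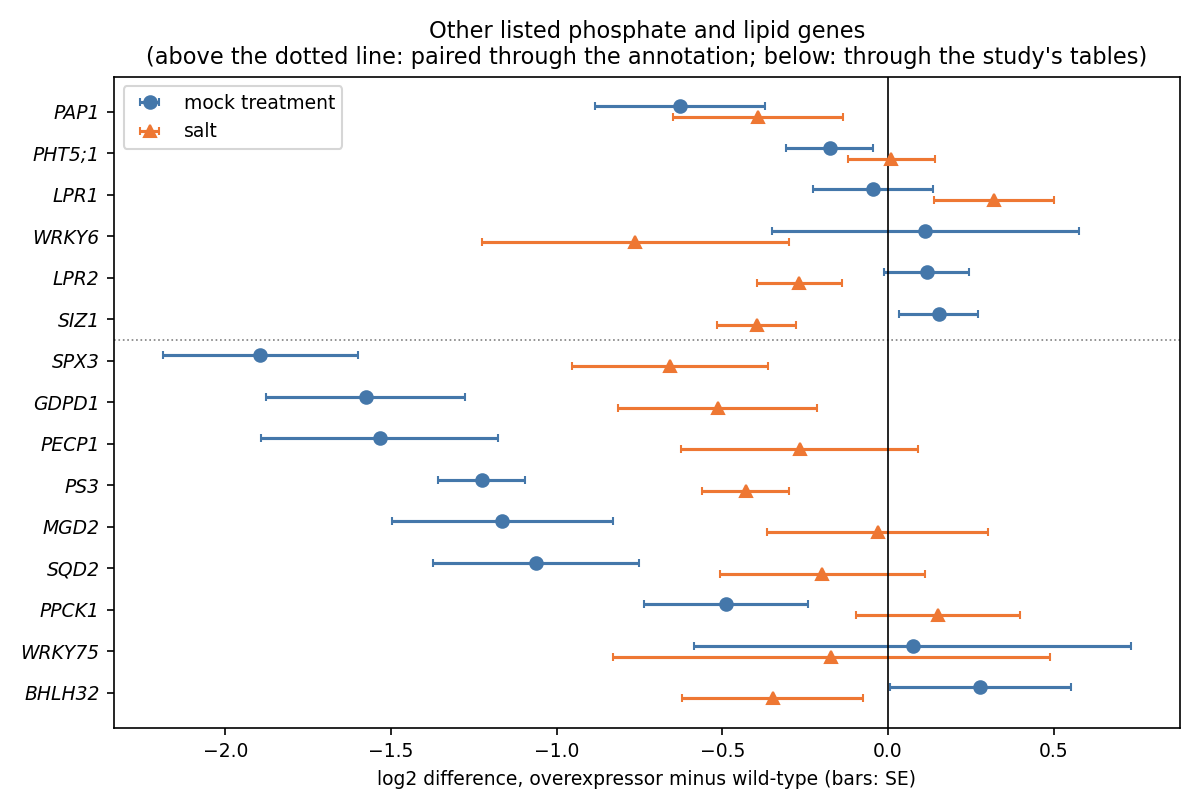
Log2 difference between overexpressor and wild-type, with its SE as a bar, for the 15 other listed genes with a probe set, under mock treatment (circles) and under salt (triangles), with the 6 annotation genes above the dotted line and the 9 table genes below it. Under mock treatment *SPX3* (-1.89), whose overexpressor signals were close to the background, is the farthest below 0, and under salt *WRKY6* is the lowest at -0.76, with a wide SE.

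Of the 15 other listed genes with a probe set, most were called as changed by salt in limma. As 9 of them were paired only through tables of genes changed on these same arrays, this was in part fixed beforehand. In the wild-type 9 of the 15 were higher and 1 was lower at an adjusted p under 0.05 by limma, where 17.2% of all probe sets were higher and 21.9% lower, and the methods' t-test called 0 of the 15 and 0.0176% of all probe sets. The annotation genes gave 5 of the 9: the transcription factor gene *WRKY6* (log2 difference 2.85), the multicopper oxidase gene *LPR2* (1.39), the vacuolar phosphate transporter gene *PHT5;1* (1.17), *PAP1* (1.16) and *SIZ1* (0.42). The lower gene was *BHLH32*, a transcription factor gene, at -1.32. In the overexpressor 12 of the 15 were higher, 8 of them table genes and 4 annotation genes, and 1, again *BHLH32* (-1.94), was lower, where 17.1% of all probe sets were higher and 24% lower. With each array centred on its median, the counts of all probe sets in the overexpressor were 4798 higher and 4440 lower, against 3888 and 5463. The methods' t-test called 10 of the 15 in the overexpressor and 26.8% of all probe sets. The sulfolipid synthase gene *SQD2* and the galactolipid synthase gene *MGD2* had log2 differences of 1.44 and 2.59 in the overexpressor and of 0.58 and 1.46 in the wild-type, where *SQD2* did not pass. In wild-type salt replicate 2, *SQD2* read 2627, *MGD2* 744 and *GDPD1* 989, each the highest of its 3 wild-type salt replicates. The interaction passed for 0 of the 15 in limma. At an unadjusted p under 0.05, 5, all of them table genes, had a positive and 1, an annotation gene, a negative interaction, against 6.04% and 6.02% of all probe sets, and the methods' t-test does not give this term.

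Across the 12 arrays the 5 genes were compared by the root mean square (RMS) difference of their log2 signals after each was centred on its own mean. Pairs of the 5 were between 0.31 (*SPX1* and *MGD3*) and 0.73 (*PS2* and *PLDP2*) apart, while each gene's own signals spread around their mean by 1.18 (*PLDP2*) to 1.82 (*PS2*). All points share the same arrays. Neighbours were sought among 6508 other probe sets, each paired with 1 gene and with a mean log2 signal above the median of all probe sets. Among these, the chloroplast lipoxygenase gene *LOX2* was nearest to *PAP17* at 0.26, to *MGD3* at 0.32 and to *SPX1* at 0.42. It was the second to *PLDP2* at 0.31. Without the limit on the mean signal, *AT5MAT* was nearest to *SPX1*, at 0.36. Nearest to *PLDP2* was *AT5G09570* at 0.29. *PS2* had no neighbour as near, its first being the anthocyanin glycosyltransferase gene *UF3GT* at 0.54, followed by *AT5G51440* at 0.54 and *AT4G17470* at 0.56. The other near genes were *AT5G09570* (0.42) and *AT3G28540* (0.43) for *SPX1*, *TBL26* (0.36) and *ABCC10* (0.36) for *PAP17*, the chlorophyllase gene *CLH1* (0.36) for *PLDP2*, and *TBL26* (0.39) and *CLH1* (0.43) for *MGD3*. Mean signals of *LOX2* followed the order of the 5 genes, with 2219.6 ± 414 (SD, n = 3) in overexpressor and 6287 ± 819.9 in wild-type seedlings under mock treatment, and 18187 ± 1999 and 19514 ± 2597 under salt. As *LOX2* was picked for its nearness over these same arrays, the shared order follows from that choice and nothing is read from it. Its probe set was also paired only through the study's supplementary tables of changed genes.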

How the data were processed

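Total RNA of the 12 seedling samples had been hybridized to ATH1 GeneChips. Per the labels, the authors made the deposited intensity values with MAS5, whose version is not given in the sources used here; the 12 columns share a 2% trimmed mean. Detection calls and scans were not used here. The 64 control probe sets were left out of 22810, and log2 signals of 22746 were fitted with limma 3.58.1 (R 4.3.3) as 4 group means with an intensity trend. Tests were two-sided, with Benjamini-Hochberg adjustment over all probe sets. The methods state independent biological replicates, and p-values measure the spread between these arrays. The 3 arrays per group limit the precision of every value.

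A probe set was named where the annotation (13512) or, failing that, the study's supplementary tables (698) paired it with 1 gene; 503 and 52 had several genes in these sources, 1 was in conflict and 7980 had none. From those tables only pairs of probe set and gene were read, and their fold changes and p-values were not used. All 5 members were paired through them, *PLDP2* only through the table of genes raised by salt in the wild-type. These tables were drawn from the mock-treated and salt-treated arrays. *PS2* was matched by locus, because the annotation gives this symbol to another gene. *SIZ1* has more than 1 probe set, and the brightest was used.

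The members and gene lists were chosen with earlier results of these data known. Named genes were the members, other listed genes past an adjusted p under 0.05 in a genotype difference (up to 4 a list), and for each member the 3 nearest genes with a mean log2 signal above the median of all probe sets. Other listed genes named for salt or an unadjusted p were chosen after their values were seen. Alternatives were quantile and median scaling, a floor at the 20th percentile, a filter at the 40th percentile, no intensity trend, array quality weights, only the groups compared, the replicate number as a block, the methods' t-test, each array left out in turn, no limit on the mean signal of neighbours and, chosen after seeing the data, weights shared within each group. The fit was tested on simulated data. Figures were drawn with matplotlib 3.10.9 in Python 3.11.15.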

Additional observations from a re-analysis of the deposited data

Results flagged for a closer look

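*SPX1*, *PS2* and *PAP17* drew attention because their salt response was larger in the overexpressor than in the wild-type beyond the threshold of limma's interaction term, by 1.98, 2.39 and 1.76 on the log2 scale. In each of the 3 genes every overexpressor replicate had a larger change than every wild-type replicate. The same was so in *PLDP2* and *MGD3*, which did not pass in the main fit, so it does not set the 3 genes apart. *MGD3* did pass with median centring, the filter at the 40th percentile or array quality weights, and without wild-type salt replicate 1 or 2. All changes of a genotype were taken from the same mock mean, on which the genes were chosen. These calls depend on the analysis: without the intensity trend 0 of the 5 genes passed, and only 1 probe set of the whole array was called higher. *SPX1* and *PS2* passed in the other alternatives run, including each array left out in turn, and *PAP17* did not pass without wild-type mock replicate 2, overexpressor mock replicate 3 or overexpressor salt replicates 1 or 3. The interaction contains the mock comparison on which the genes were selected, so it is not an independent test of them.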

How the results depend on the processing

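Under the alternatives, 532 values of the 5 genes were kept and 8 were not. For the genotype difference under salt, kept means the same direction and side of the threshold. For the other comparisons, where the genes were not tested, it means the same direction and a move within the replicate spread, and says nothing of calls. Most of the 8 were differences between the genotypes under salt. For *MGD3* it was -0.070 and became 0.0010 with median centring, 0.0093 without wild-type salt replicate 2, 0.11 without wild-type salt replicate 3 and 0.18 without overexpressor salt replicate 2, with -0.33 as the lowest value without 1 array. For *PAP17* it became 0.091 without wild-type salt replicate 3, with -0.28 as the lowest value without 1 array. For *PLDP2* it was -0.83 with array quality weights, past limma's threshold, so that 1 of the 5 genes was called. The condition of entry of *PLDP2* favours this direction, so that call is a description and not a test. The other 2 were the salt response of *PAP17* in the wild-type (1.60) and its interaction (1.47) with those weights. The cause was not tested.

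Under salt, 279 probe sets were called higher and 178 lower in the overexpressor. Median centring gave 545 higher, the filter at the 40th percentile 277 lower, no intensity trend 50 and 30, array quality weights 1696 and 1403, weights shared within each group 73 and 25, only the groups compared 2 and 1, and the methods' t-test 0 and 0. Leaving out 1 array gave 23 to 1154 higher and 8 to 791 lower, the most without wild-type salt replicate 2. Under mock treatment the 30 higher and 98 lower became 6 to 112 and 33 to 223 without 1 array, 250 and 337 with array quality weights, 156 and 235 with weights shared within each group, 146 and 219 with only the groups compared, 8 and 35 without the trend, and 0 and 0 with the methods' t-test. For the interaction the 56 and 12 became 4 to 466 and 1 to 294 without 1 array, 145 and 25 with median centring, 79 and 22 with quantile scaling, 710 and 572 with array quality weights, 67 and 20 with shared weights, and 1 and 2 without the trend.

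The replicate numbers did not pair the samples: over 18 comparisons of arrays with the same number, the deviations from the group means correlated between -0.07 and 0.09. With the replicate number as a block, 144 probe sets were called higher and 87 lower in the overexpressor under salt, 20 and 75 under mock treatment, and 17 and 1 for the interaction. For the 5 genes, the call on their genotype difference under salt did not change with the block.

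Of the 15 pairs of a member and a near gene, 14 stayed when the limit on the mean signal was dropped. The exception was in *SPX1*, where *AT5MAT* came first and *AT3G28540* dropped out. Signals of *PLDP2* near the background limit what its mock difference, salt responses and interaction can show. For *PS2* and *MGD3*, low mock-treated overexpressor signals limit the mock difference, the salt response in the overexpressor and the interaction.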
